A study of Mus musculus with 8 samples.

Results

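The 35 genes described here carry glucose from the medium to lactate and into the pentose phosphate pathway: glucose and lactate transporters, the enzymes of glycolysis with their isoforms, phosphoglucomutase, and the enzymes of the pentose phosphate pathway. They were taken by exact gene symbol, and all 35 were found among the 24421 genes of the count tables. The study compared mouse CD8+ T cells with wild-type LKB1 (4 control libraries) and LKB1-deficient CD8+ T cells (4 libraries). In both groups naive T cells had been stimulated for 48 hours on plates coated with antibodies to CD3 and CD28, so control and LKB1-deficient cells were alike in being activated. The labels used here do not give the allele, the deleted part of the gene, the driver of the deletion or the age of the mice, nor whether replicates came from separate animals, and p-values therefore cover only the spread between these libraries.

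Activated T cells take up much more glucose than resting ones and turn most of it into lactate, even with oxygen present. Hexokinase traps glucose as glucose-6-phosphate, which goes either down glycolysis to pyruvate and lactate or into the pentose phosphate pathway, whose oxidative branch makes NADPH and whose non-oxidative branch exchanges sugars with glycolysis and supplies ribose for nucleotides. Many steps have several isoforms, encoded by separate genes, that differ in affinity, regulation or tissue. The Stk11 gene encodes LKB1, the upstream kinase of AMPK, which senses low cellular energy.

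Levels are given as CPM, gene counts scaled to the usual common library size, after correction of library sizes with edgeR's TMM method, and differences are log2 fold changes of LKB1-deficient against control with their approximate standard errors (SE). Adjusted p-values come from edgeR's quasi-likelihood test over all 10396 genes that passed the count filter, and a gene is called when its value is under 0.05. Reads come from transcript 3' ends and CPM is not divided by transcript length, so levels of different genes are levels of 3' reads. The control libraries held 7090252 to 12211930 gene counts and the LKB1-deficient libraries 3454388 to 6356125. Stk11 itself was at 101, 67.7, 81.8 and 76.9 CPM in control replicates 1 to 4 and at 76.4, 70.7, 107 and 64.3 CPM in LKB1-deficient replicates 1 to 4 (adjusted p = 0.911). Without the position of the deletion these 3' reads do not check the genotype. The 7 CD8 T cell markers summed to 3338 to 3899.7 CPM in control and 1858 to 2822 CPM in LKB1-deficient libraries. Of these, 3 were called lower (Cd8a, Cd3d and Cd3g). Cd3e and Cd2 had log2 fold changes above 0 (0.32 and 0.24) and did not pass the test (adjusted p = 0.202 and 0.203). The 6 B cell markers summed to at most 12.6 CPM, and 5 of 6 erythroid markers were at 0 in every library. The 8 mast cell and basophil markers summed to 9.08 to 12.2 CPM in control and 14.6 to 39.9 CPM in LKB1-deficient libraries. Of these 8, 2 were called higher, Gata2 and Il1rl1. Fcer1a was at most 0.538 CPM in any library, and Hdc did not pass the test (log2 fold change 0.03, adjusted p = 0.965).

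Hk2, the inducible hexokinase, was the only member called higher in LKB1-deficient cells. The members called lower were Ldhb, the lactate dehydrogenase subunit typical of oxidative tissues, Eno3, the enolase typical of muscle, and Pgls, the lactonase of the pentose phosphate pathway. Of the 35 members 33 passed the count filter, 1 was called higher, 3 were called lower and 29 did not pass the test. Over all tested genes 22.5% were called, 12.4% higher and 10.1% lower, so the share of members called (12.1%) was below that of all genes and the share called lower (9.09%) was near it. The log2 fold change was below 0 in 28 of the 33 tested members and in 49.7% of all tested genes, and its median was -0.29 in the members and 0.00 in all tested genes. With scaling by total counts both medians moved down, to -0.44 and -0.16. Over all genes 1286 were called higher and 1051 lower, which became 1023 and 1446 with upper quartile scaling and 829 and 1576 with total count scaling. Without LKB1-deficient replicates 2 and 4, which were low in most members, the median of the members was -0.12. Only Hk2 and Ldhb of the 34 members then tested were called, and the calls over all 10948 tested genes fell to 162 higher and 98 lower. Leaving out libraries that are low in most members moves the median of the members up in any case. The calls then also rest on fewer LKB1-deficient libraries.

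**Figure D1:**
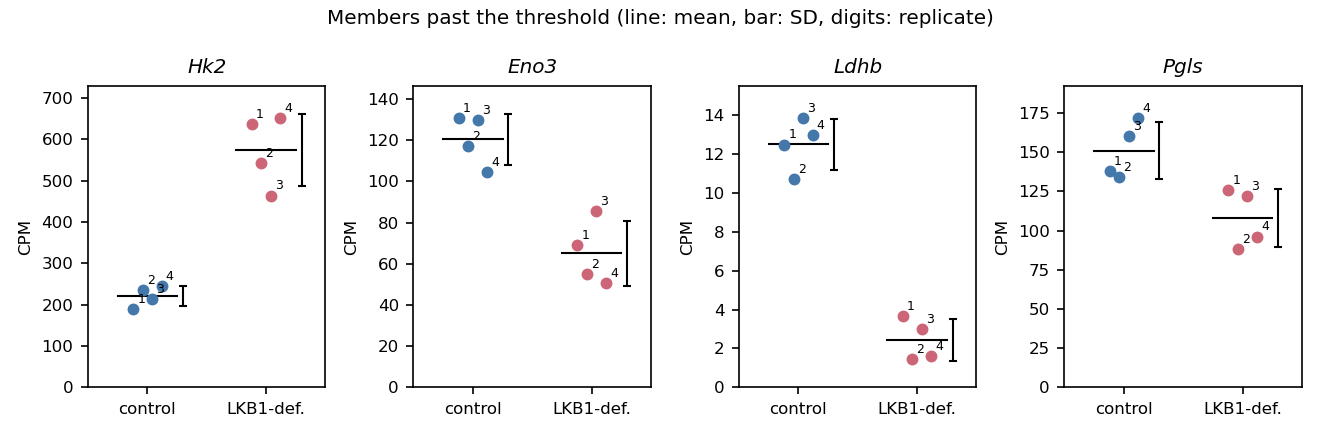
CPM of the called members in each library, with controls in blue and LKB1-deficient libraries in red; lines are group means, bars are SD (n = 4) and digits are replicate numbers. Hk2 is at 464 CPM or more in every LKB1-deficient library against at most 245 in control, and Eno3, Ldhb and Pgls lie below the controls in every LKB1-deficient library.

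Some members could hardly be measured. Gapdh, Eno1 and Pgam1 encode abundant glycolytic enzymes, yet Gapdh was at 4.54 to 7.13 CPM in control libraries, Pgam1 at 1.74 to 1.95 CPM, and Eno1 had 0 to 28 counts in any library. In the GENCODE vM21 annotation 76 other genes hold a copy of part of the last 300 bases of the Gapdh transcript (at least 50 bases at 95% identity or more), and such copies cover 100% of those bases. A single gene, Eno1b, covers 99% of the last 300 bases of Eno1, and a pseudogene, Pgam1-ps2, covers 43.1% of the Pgam1 transcript, though none of its last 300 bases. The count tables list separately the alignments of reads that map to several places, 2.213 to 3.502 per gene count. Whether such reads account for the low counts of these genes was not tested. Partial copies also covered 76.8% of the Ldhb transcript and 36.3% of its last 300 bases. For Gpi1 these shares were 54.6% and 17.3%, and for Eno2 22.7% of the last 300 bases was covered. Copies covered 68.8% of the Pgk1, 65.5% of the Pkm and 55.0% of the Ldha transcript but none of their last 300 bases. Pgm1 and Pgm2 are each listed by RefSeq as an older name of the other, so which phosphoglucomutase each row counts is uncertain.

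Hk2 is a protein-coding gene on the minus strand of chromosome 6, at 82725025 to 82774454 (GRCm38, that is mm10). It was at 189, 235, 214 and 245 CPM in control replicates 1 to 4 and at 637, 543, 464 and 651 CPM in LKB1-deficient replicates 1 to 4. The groups did not overlap, as in 12.0% of all tested genes in this direction. Hk2 rose 2.60-fold (log2 fold change 1.38 ± 0.16, adjusted p = 0.00268). It stayed called in each of the 20 alternative analyses but differed in size between them, with log2 fold changes of 1.14 to 1.46. In the libraries whose identifiers start with EU (replicates 2 to 4 of each group) the log2 fold change was 1.25 (adjusted p = 0.0143), and without LKB1-deficient replicates 2 and 4 it was 1.32 (adjusted p = 0.0303).

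Hk1 did not pass the test. It is the hexokinase expressed in most tissues and was at 125, 151, 145 and 143 CPM in control and 167, 88.4, 211 and 96.3 CPM in LKB1-deficient libraries, above all controls in LKB1-deficient replicates 1 and 3 and below all of them in replicates 2 and 4 (adjusted p = 0.994). Hk3, typical of myeloid cells, had 1 to 10 counts per library and was not tested. Summed hexokinase reads went from 362 ± 34.9 to 715 ± 75.9 CPM (SD, n = 4), a ratio of means of 1.97, and every LKB1-deficient library lay above every control.

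The 250 bases before the RefSeq transcription starts of Hk2, Ldhb and Eno3 are shown because these genes had the largest log2 fold changes among the called members, in opposite directions. They are from the RefSeq table of GRCm38.p6, 5′ to 3′ on the strand of the gene. Capitals mark ACGTG or GCGTG, the core of the sites bound by the hypoxia-inducible factor HIF-1, on either strand (CACGT and CACGC on the strand shown). The window of Hk2 is chr6:82774455-82774704 (minus strand), that of Ldhb chr6:142507958-142508207 (minus strand) and that of Eno3 chr11:70656926-70657175 (plus strand).
Hk2: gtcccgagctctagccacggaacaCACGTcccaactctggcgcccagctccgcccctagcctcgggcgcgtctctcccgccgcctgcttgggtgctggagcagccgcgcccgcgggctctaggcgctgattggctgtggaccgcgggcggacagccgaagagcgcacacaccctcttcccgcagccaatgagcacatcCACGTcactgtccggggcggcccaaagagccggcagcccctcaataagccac
Ldhb: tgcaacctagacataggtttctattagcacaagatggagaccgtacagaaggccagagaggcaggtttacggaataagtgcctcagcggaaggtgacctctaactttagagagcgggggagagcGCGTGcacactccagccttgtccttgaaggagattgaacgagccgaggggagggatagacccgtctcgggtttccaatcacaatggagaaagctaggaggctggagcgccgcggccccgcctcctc
Eno3: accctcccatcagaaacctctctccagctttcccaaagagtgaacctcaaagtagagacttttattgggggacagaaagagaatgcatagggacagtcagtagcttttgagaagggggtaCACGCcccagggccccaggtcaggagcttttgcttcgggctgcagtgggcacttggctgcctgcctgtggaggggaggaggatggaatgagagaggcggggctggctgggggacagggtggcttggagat
The Hk2 window held 2 such matches, and the Ldhb and Eno3 windows held 1 each. Binding at these matches was not tested. Of the 35 members 34 had at least 1 promoter in the table, 47 promoters in all. ACGTG or GCGTG occurred in 78.7% of these 47 windows and in 38.6% of all 32851 windows of the table. The longer motif CACGTG, the E-box bound by MYC with MAX, contains ACGTG and was in 8.51% of the member windows and 6.02% of all windows, and in none of the Hk2, Ldhb, Eno3 and Pgls windows. GGGCGG, the GC box, was in 59.6% of member windows and 32.7% of all windows. The median GC content of the windows was 59.2% for the members and 52.4% for all, and its part in these shares was not tested.

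Glucose enters T cells through GLUT1 and GLUT3, encoded by Slc2a1 and Slc2a3. Slc2a1 was at 200.4, 231, 278 and 291 CPM in control and 299, 205, 357 and 238 CPM in LKB1-deficient replicates 1 to 4 (log2 fold change 0.14 ± 0.20, adjusted p = 0.638), with wide overlap of the groups. Slc2a3 was at 191, 255, 379.6 and 355 CPM in control and 193, 56.1, 338 and 78.3 CPM in LKB1-deficient replicates (log2 fold change -0.82 ± 0.49, adjusted p = 0.231). LKB1-deficient replicates 2 and 4 were far below every control in Slc2a3, while replicates 1 and 3 were within the control range. Without LKB1-deficient replicate 3 Slc2a3 passed the test (log2 fold change -1.45, adjusted p = 0.0333), and without replicates 2 and 4 its log2 fold change was -0.14 (adjusted p = 0.824).

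No gene between hexokinase and aldolase was called. Gpi1, glucose-6-phosphate isomerase, went from 255 ± 28.9 to 226 ± 58.9 CPM (adjusted p = 0.516). Among the subunits of phosphofructokinase 1, which commits sugar to glycolysis, Pfkp was at 417, 440.5, 556 and 529 CPM in control and 478, 287, 814 and 329.9 CPM in LKB1-deficient replicates (adjusted p = 0.962), so that LKB1-deficient replicate 3 was above and replicates 2 and 4 below every control. Pfkl, the liver-type subunit, was at 182 to 227 CPM in control and 162 to 237 CPM in LKB1-deficient libraries, and Pfkm, the muscle-type subunit, at 10.7 to 17.5 and 8.73 to 15.2 CPM. Pfkfb3, which makes the phosphofructokinase activator fructose-2,6-bisphosphate, went from 41.8 ± 5.67 to 33.0 ± 3.25 CPM, a log2 fold change of -0.34 ± 0.14 (adjusted p = 0.101). Pfkfb4, its paralog, had 3 to 31 counts per library.

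Aldoa, the main aldolase, was at 1297, 1324, 1748 and 1631 CPM in control and 1407, 865, 1589 and 972 CPM in LKB1-deficient replicates (adjusted p = 0.311). Aldoc, the aldolase typical of brain, was far lower in reads, at 18.7, 12.7, 21.4 and 17.5 CPM in control and 8.43, 1.45, 14.3 and 3.23 CPM in LKB1-deficient replicates, with 5 to 283 counts per library. LKB1-deficient replicates 1, 2 and 4 were below every control, and replicate 3 was within their range (log2 fold change -1.26 ± 0.47, adjusted p = 0.072). Aldoc passed the test with DESeq2's Wald test (adjusted p = 0.0371) and without LKB1-deficient replicate 3 (adjusted p = 0.0123). Tpi1, triose phosphate isomerase, was at 587, 556, 725 and 691 CPM in control and 543, 323, 557 and 332 CPM in LKB1-deficient replicates (log2 fold change -0.54 ± 0.21, adjusted p = 0.0885), and without LKB1-deficient replicate 3 its adjusted p was 0.0432.

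In the payoff phase of glycolysis, where ATP is made, Eno3 was called. Eno3 is a protein-coding gene on the plus strand of chromosome 11, at 70657202 to 70662513, and was at 131, 117, 129.6 and 104 CPM in control and 69.1, 55.0, 85.5 and 50.6 CPM in LKB1-deficient replicates. All LKB1-deficient libraries were below all controls, as in 14.1% of all tested genes in this direction. Eno3 was 1.85-fold lower (log2 fold change -0.89 ± 0.17, adjusted p = 0.01004), so it was not called at a threshold of 0.01. Without LKB1-deficient replicates 2 and 4 Eno3 lost its call as well (log2 fold change -0.63, adjusted p = 0.0774). In the EU libraries alone its adjusted p was 0.0335. Eno2, the enolase typical of neurons, had 3 to 39 counts per library (adjusted p = 0.202). As Eno1 was hardly counted, these values do not give total enolase.

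Pgk1, phosphoglycerate kinase, was at 68.5 ± 11.3 CPM in control and 63.9 ± 5.15 CPM in LKB1-deficient libraries (adjusted p = 0.636), and Bpgm, bisphosphoglycerate mutase, at 22.9 ± 2.02 and 20.1 ± 3.20 CPM (adjusted p = 0.351). Gapdh and Pgam1, read at the low levels above, had adjusted p-values of 0.471 and 0.931. Pkm, pyruvate kinase, was at 1322, 1242, 1607 and 1513 CPM in control and 1264, 634, 1266 and 753 CPM in LKB1-deficient replicates (log2 fold change -0.54 ± 0.24, adjusted p = 0.124). LKB1-deficient replicates 1 and 3 overlapped the lower controls, and replicates 2 and 4 were below every control. The 3' reads do not separate the M1 and M2 splice forms of Pkm.

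Lactate dehydrogenase, which turns pyruvate into lactate and regenerates NAD+, is built from A and B subunits. Ldha had the most reads of all members, at 2703, 2917, 3333 and 3433 CPM in control and 2751, 1560.2, 2721 and 1786 CPM in LKB1-deficient replicates (log2 fold change -0.49 ± 0.22, adjusted p = 0.119), and did not pass the test. Ldhb, on the minus strand of chromosome 6, at 142490249 to 142507957, protein-coding, was at 12.5, 10.7, 13.8 and 13.0 CPM in control and 3.65, 1.45, 2.99 and 1.61 CPM in LKB1-deficient replicates. Behind these values stood 100 to 183 counts in each control and 5 to 19 in each LKB1-deficient sample. Ldhb was 5.01-fold lower (log2 fold change -2.33 ± 0.26, adjusted p = 0.00268), with all LKB1-deficient libraries below all controls. Its log2 fold change was -2.54 to -1.93 over the 19 alternatives in which it was tested, and it was called in each. Its level was too low for the remaining alternative, a filter at a mean CPM of 10.

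Lactate leaves the cell through the monocarboxylate transporters MCT1 and MCT4, encoded by Slc16a1 and Slc16a3. Slc16a1 was at 217, 243, 237 and 263 CPM in control and 289.8, 234, 439 and 300.3 CPM in LKB1-deficient replicates (log2 fold change 0.40 ± 0.19, adjusted p = 0.146). Slc16a3 was at 210.1, 237, 271 and 267 CPM in control and 263, 93.4, 287 and 149 CPM in LKB1-deficient replicates (log2 fold change -0.31 ± 0.30, adjusted p = 0.47). In Slc16a3, LKB1-deficient replicates 2 and 4 were below every control and replicate 3 above every control. Neither transporter passed the test. Pgm1 and Pgm2, grouped here as phosphoglucomutase genes, did not pass the test either. Pgm1 was at 20.3 ± 3.99 CPM in control and 26.6 ± 5.25 CPM in LKB1-deficient libraries (adjusted p = 0.139). Pgm2 was at 125 ± 19.7 CPM in control and 95.8 ± 36.8 CPM in LKB1-deficient libraries (adjusted p = 0.277).

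**Figure D2:**
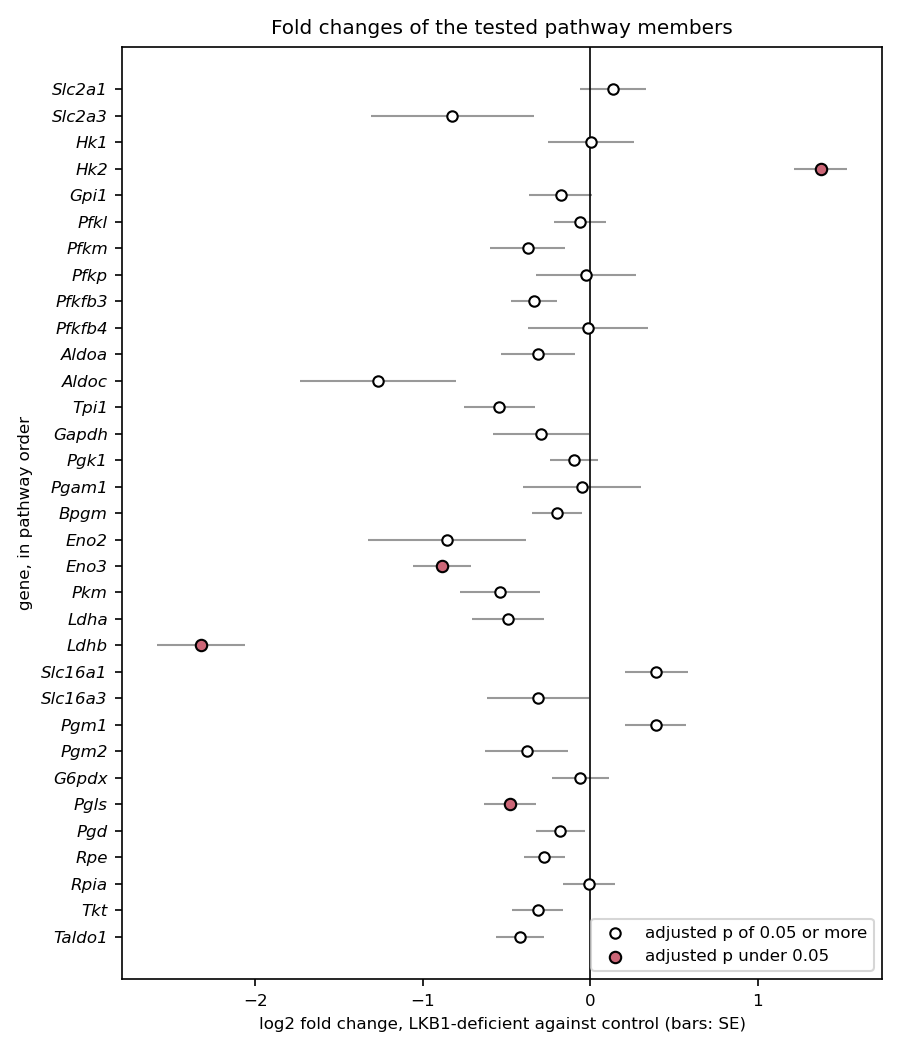
Log2 fold change of LKB1-deficient against control for the 33 tested members in pathway order, with bars of 1 SE; filled points have an adjusted p under 0.05. Hk2 stands to the right at 1.38 and Ldhb to the left at -2.33, and 28 of the 33 points lie below 0.

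All 7 pentose phosphate members had a log2 fold change below 0, and 1, Pgls, was called. G6pdx, glucose-6-phosphate dehydrogenase, the entry of the oxidative branch, was at 101, 84.8, 102 and 101 CPM in control and 96.9, 78.3, 123 and 74.8 CPM in LKB1-deficient replicates (log2 fold change -0.06 ± 0.17, adjusted p = 0.828). Pgls, 6-phosphogluconolactonase, on the plus strand of chromosome 8, at 71592176 to 71601092, protein-coding, was at 138, 134, 160.4 and 172 CPM in control and 126, 88.1, 122 and 96.1 CPM in LKB1-deficient replicates, without overlap. Its log2 fold change of -0.48 ± 0.16 (a 1.40-fold lower level) had an adjusted p of 0.0485. That call ended in 13 of 20 alternatives, among them each analysis without a single control library (adjusted p = 0.0531 to 0.121), without LKB1-deficient replicate 2 (0.123) or 4 (0.129), and in the EU libraries (0.05002). Pgd, 6-phosphogluconate dehydrogenase, was at 192 ± 21.4 CPM in control and 170.0 ± 24.6 CPM in LKB1-deficient libraries (adjusted p = 0.383).

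In the non-oxidative branch, Taldo1, transaldolase, was at 281, 305, 344 and 351 CPM in control and 272, 202, 254 and 228 CPM in LKB1-deficient replicates (log2 fold change -0.42 ± 0.14, adjusted p = 0.0582). Every LKB1-deficient library was below every control. The test was passed in 6 alternatives, among them total count scaling (adjusted p = 0.0412), DESeq2 (0.0146) and the analysis without LKB1-deficient replicate 1 (0.0469), and the log2 fold change was -0.17 once each library's trend on transcript length was removed. Tkt, transketolase, was at 340.0, 335, 375 and 423 CPM in control and 309, 334, 304 and 238 CPM in LKB1-deficient replicates (log2 fold change -0.31 ± 0.15, adjusted p = 0.148), without overlap. Rpe, ribulose-5-phosphate epimerase, went from 61.9 ± 5.26 to 51.1 ± 4.71 CPM (adjusted p = 0.123). Rpia, ribose-5-phosphate isomerase, was at 108 ± 16.4 and 108 ± 15.8 CPM (log2 fold change -0.01 ± 0.15, adjusted p = 0.977). Summed over the 7 genes, reads went from 1299 ± 111 to 1065 ± 91.5 CPM (SD, n = 4), and the groups did not overlap. Among all 33 tested members, 5 lay without overlap below the controls (15.2%), close to the 14.1% of all tested genes, and 1 above (12.0% of all tested genes).

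**Figure D3:**
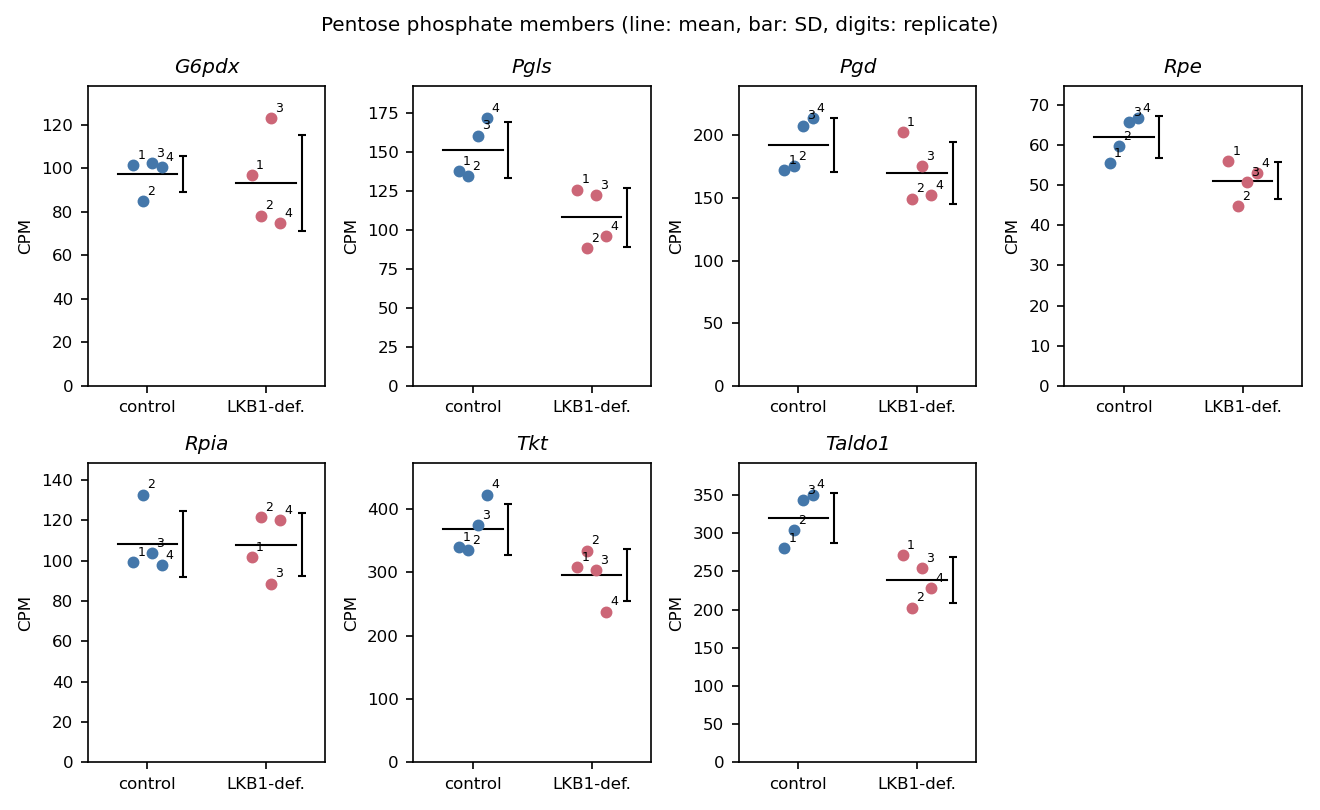
CPM of the 7 pentose phosphate members in each library, controls in blue and LKB1-deficient in red, with means, SD (n = 4) and replicate numbers. Pgls, Tkt and Taldo1 show no overlap between the groups, and Rpia is at 97.9 to 133 CPM in control and 88.6 to 122 CPM in LKB1-deficient libraries.

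The LKB1-deficient libraries were not alike. In 19 of the 33 tested members (57.6%) LKB1-deficient replicates 2 and 4 were the lowest pair of all 8 libraries, against 20.8% of all tested genes, and in no member were they the highest pair, against 19.0% of all tested genes. This was counted after the values had been seen and carries no test. The 19 were Slc2a3, Hk1, Gpi1, Pfkl, Pfkm, Pfkp, Aldoa, Aldoc, Tpi1, Eno3, Pkm, Ldha, Ldhb, Slc16a3, Pgm2, G6pdx, Pgls, Pgd and Taldo1. Summed over the 28 members outside the pentose phosphate pathway, reads came to 8328, 8652, 10495 and 10307 CPM in control and 9087, 5510.1, 9990.2 and 6325 CPM in LKB1-deficient replicates. LKB1-deficient replicates 1 and 3 thus lay within the control range and replicates 2 and 4 below it. These libraries also had the fewest alignments to several places per gene count (2.246 and 2.213), the largest share of counts outside annotated genes (17.5% and 16.5%), the lowest sums of CD8 T cell markers (1979 and 1858 CPM) and the highest sums of mast cell and basophil markers (39.9 and 32.3 CPM). They had the highest sums of NK cell markers as well (154 and 139.9 CPM against at most 116 CPM elsewhere), with 2 of these 5 markers, Klra8 and Klra4, at 0 in every library and Eomes, which activated CD8 T cells also express, at 151 and 138 CPM in these libraries. Their sums of CD4 T cell markers (7.85 and 8.61 CPM against at least 25.8 CPM elsewhere) and of fibroblast and epithelial markers (3.78 and 1.35 CPM against at least 5.90 CPM elsewhere) were the lowest. Of the CD4 T cell markers, Ctla4 was at 1.75 and 5.38 CPM against at least 16.9 CPM elsewhere. Cd4 itself was at most 1.17 CPM in any library. Epcam was at 3.78 and 1.08 CPM against at least 5.90 CPM elsewhere, and Col1a1, Col1a2 and Krt8 were at most 0.453 CPM in any library. Of the CD8 T cell markers, Cd3e (84.1 and 113 CPM) and Cd2 (217 and 239 CPM) were within the range of the other libraries. Of the mast cell and basophil markers, Gata2 was at 9.60 and 8.34 CPM, Il1rl1 at 14.0 and 9.96 CPM and Fcer1a at 0 and 0.538 CPM. The part of these in the pattern was not tested. Alignments to several places and counts outside annotated genes also separated the whole groups. The former were 2.213 to 2.648 per gene count in LKB1-deficient and 2.920 to 3.502 in control libraries. The latter were 14.9% to 17.5% in LKB1-deficient and 12.1% to 14.3% in control libraries. Their part in the differences between the groups was not tested either. In bulk samples, fewer cells that express a gene and less RNA per cell cannot be told apart.

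**Figure D4:**
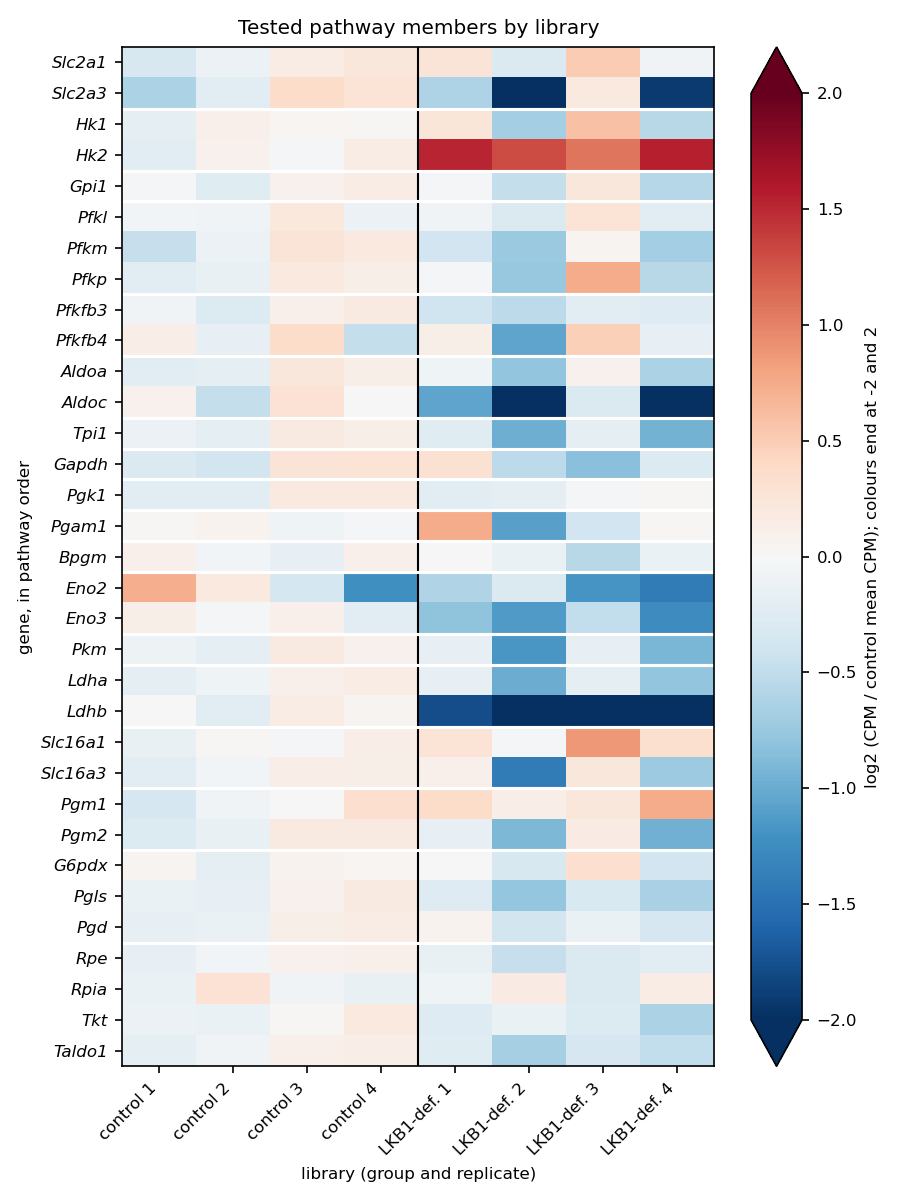
Log2 of each library's CPM over the control mean for the 33 tested members (rows, pathway order) in the 8 libraries (columns), red above and blue below the control mean. The columns of LKB1-deficient replicates 2 and 4 are blue in most rows and those of replicates 1 and 3 are mixed, while the Hk2 row is red and the Ldhb row blue in all LKB1-deficient libraries.

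Isoform shares, the part of a step's reads that 1 isoform takes in the same library, do not depend on library scaling. Of 11 shares tested, 5 reached the smallest p that the two-sided exact permutation test of 4 against 4 libraries can give (p = 0.0286). After Benjamini-Hochberg adjustment over the 11 shares each had p = 0.0629 in this exact test, above 0.05. In each of the 5 the groups did not overlap, which the smallest p of this exact test already requires. Slc2a3 made up 48.8, 52.4, 57.7 and 54.9% of glucose transporter reads in control and 39.2, 21.5, 48.6 and 24.8% in LKB1-deficient replicates 1 to 4, with Slc2a1 the rest. Control replicate 1 and LKB1-deficient replicate 3 nearly met. The mean went from 53.5 ± 3.78% to 33.5 ± 12.7% (SD, n = 4), and without LKB1-deficient replicates 2 and 4 the difference was -9.59 instead of -20.0 percentage points. Hk2 made up 60.1, 60.8, 59.6 and 63.0% of hexokinase reads in control and 79.2, 85.8, 68.6 and 87.0% in LKB1-deficient replicates. Its mean share was 60.9 ± 1.504% and 80.1 ± 8.44%. The difference of 19.3 percentage points was 13.0 without LKB1-deficient replicates 2 and 4.

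Slc16a3 made up 49.2, 49.3, 53.3 and 50.4% of the reads of the lactate transporter pair in control and 47.6, 28.5, 39.5 and 33.1% in LKB1-deficient replicates. Its mean share was 50.5 ± 1.90% in control and 37.2 ± 8.29% in LKB1-deficient libraries, a difference of -13.3 percentage points that was -6.96 without LKB1-deficient replicates 2 and 4. Slc2a1 and Slc16a1 thus made up more of their pairs in LKB1-deficient libraries, and neither pair's sum separated the groups. Summed transporter reads were 546 ± 129 and 441 ± 196 CPM for glucose and 486 ± 44.5 and 514 ± 169 CPM for lactate. The minor isoforms Aldoc and Ldhb took 1.16 ± 0.203% and 0.404 ± 0.0422% of aldolase and lactate dehydrogenase reads in control and 0.496 ± 0.317% and 0.106 ± 0.0194% in LKB1-deficient libraries. Pgm2 fell short of the threshold, with 86.0 ± 1.29% and 76.7 ± 8.69% of phosphoglucomutase reads (exact p = 0.0857, adjusted p = 0.135, permutation test). For phosphofructokinase, Pfkp took 69.6 ± 2.22% and 68.7 ± 6.11%, Pfkl 28.3 ± 2.43% and 29.6 ± 5.90%, and Pfkm 2.08 ± 0.247% and 1.70 ± 0.208% of reads (exact permutation p = 0.8286, 0.714 and 0.0857). The shares of Pfkfb4 and of Eno3 had exact permutation p-values of 0.543 and 0.457, and the enolase total behind the Eno3 share holds the low counts of Eno1.

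**Figure D5:**
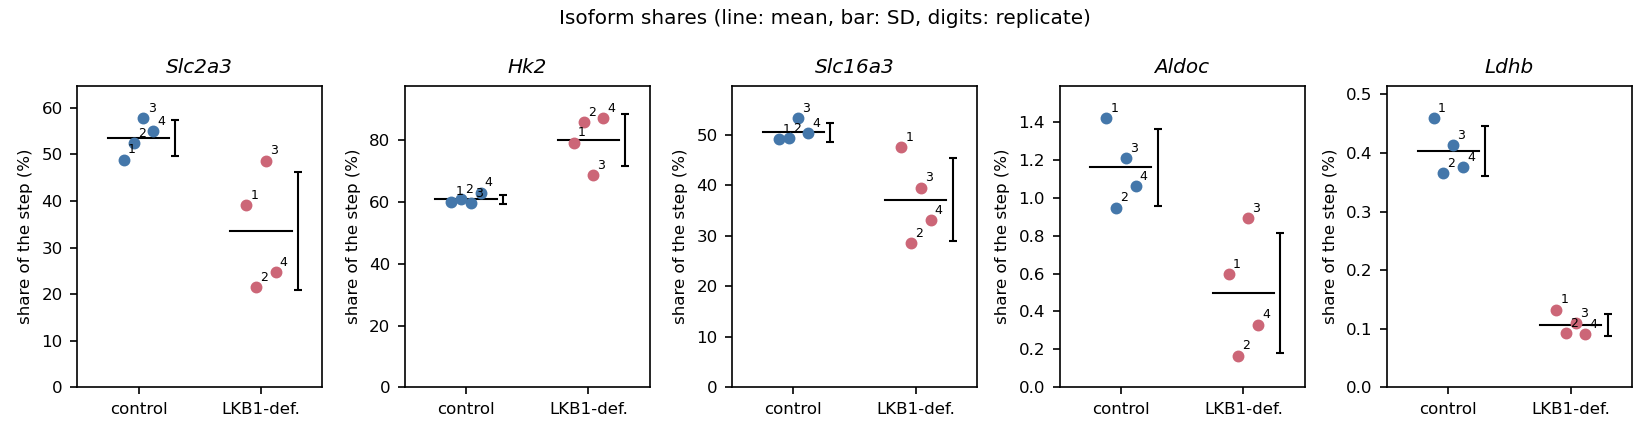
Share of a step's reads taken by Slc2a3, Hk2, Slc16a3, Aldoc and Ldhb in each library, in percent, controls in blue and LKB1-deficient in red, with means, SD (n = 4) and replicate numbers; the vertical scales differ. In all 5 panels the groups do not overlap, and in Slc2a3 the LKB1-deficient replicates 2 and 4 lie far below replicates 1 and 3.

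Other genes of glucose metabolism and its control were taken from a list of 78, of which 77 were in the tables and 51 were tested. Of these, 4 were called higher and 3 lower (13.7%, against 22.5% of all tested genes), with a median log2 fold change of -0.07 against 0.00 for all. Gfpt1, the entry enzyme of the hexosamine pathway, was at 68.2, 71.9, 68.0 and 49.1 CPM in control and 97.7, 166, 117 and 237 CPM in LKB1-deficient replicates. Its mean rose from 64.3 ± 10.3 to 155 ± 62.0 CPM, a log2 fold change of 1.26 ± 0.26 (adjusted p = 0.0115). Gnpnat1, a later enzyme of the same pathway, fell from 49.6 ± 4.13 to 35.9 ± 3.82 CPM, a log2 fold change of -0.46 ± 0.13 (adjusted p = 0.0291). Gpd2, the mitochondrial glycerol-3-phosphate dehydrogenase that passes electrons from cytosolic NADH to the respiratory chain, was at 114, 122, 102 and 107 CPM in control and 177, 229, 175 and 246 CPM in LKB1-deficient replicates (log2 fold change 0.89 ± 0.15, adjusted p = 0.00576).

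Txnip, which restrains glucose uptake, was at 145, 112, 137 and 121 CPM in control and 94.1, 84.4, 86.4 and 82.9 CPM in LKB1-deficient replicates, without overlap (log2 fold change -0.57 ± 0.13, adjusted p = 0.0141). Tigar, a fructose-2,6-bisphosphatase that favours the pentose phosphate pathway, rose from 26.7 ± 2.04 to 40.0 ± 8.34 CPM, a log2 fold change of 0.58 ± 0.16 (adjusted p = 0.0291). Slc16a6, another member of the monocarboxylate transporter family, rose from 100.1 ± 23.6 to 173 ± 29.9 CPM, a log2 fold change of 0.79 ± 0.19 (adjusted p = 0.0187), and Galt, of galactose metabolism, fell from 9.23 ± 0.941 to 4.94 ± 1.61 CPM, a log2 fold change of -0.90 ± 0.23 (adjusted p = 0.0231). Among the regulators that did not pass, Myc was at 192, 223, 201 and 227 CPM in control and 293, 253, 249.99 and 291 CPM in LKB1-deficient replicates (adjusted p = 0.0599), without overlap. Hif1a, the regulated subunit of HIF-1, was at 171, 351, 271 and 191 CPM in control and 369, 323, 402 and 351 CPM in LKB1-deficient replicates (adjusted p = 0.0901). Myc passed with DESeq2 (adjusted p = 0.00665) and with the length trend removed (0.0240), and Hif1a without control replicate 2 (0.0284). Pdk1, the pyruvate dehydrogenase kinase that HIF-1 induces, was at 126, 125, 155 and 117 CPM in control and 122, 73.9, 126 and 64.0 CPM in LKB1-deficient replicates (adjusted p = 0.17), with LKB1-deficient replicates 2 and 4 below every control.

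Leaving out LKB1-deficient replicates 2 and 4 lowered the calls over all genes from 1286 higher and 1051 lower to 162 and 98. Gpd2 then remained called (log2 fold change 0.67, adjusted p = 0.0470), and the calls of the other 6 listed genes ended. Their log2 fold changes were then 0.75 for Gfpt1 (adjusted p = 0.0680), 0.62 for Slc16a6 (0.141), 0.33 for Tigar (0.208), -0.51 for Txnip (0.117), -0.92 for Galt (0.0696) and -0.37 for Gnpnat1 (0.173). With single libraries left out Gpd2, Gfpt1 and Txnip remained called. Tigar lost its call without any 1 of the controls or without LKB1-deficient replicate 2 or 4 (adjusted p = 0.0502 to 0.0773). Leaving out control replicate 3, control replicate 4, LKB1-deficient replicate 2 or LKB1-deficient replicate 4 ended the call of Gnpnat1 (adjusted p = 0.0655 to 0.0890). Galt lost its call without control replicate 1, control replicate 3 or LKB1-deficient replicate 4 (0.0525 to 0.0608), and Slc16a6 without control replicate 3 (0.0594) or LKB1-deficient replicate 4 (0.0552). Calls also ended with counts thinned to equal depth for Txnip (adjusted p = 0.0728), Tigar (0.0817), Gnpnat1 (0.0535) and Galt (0.0642). In the EU libraries they ended for Tigar (adjusted p = 0.0565), Slc16a6 (0.0555), Gnpnat1 (0.0541) and Galt (0.0847), with total count scaling for Tigar (0.0783) and with the length trend removed for Galt (0.0589). At an adjusted p of 0.01 Gpd2 alone of the 7 remained called.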

How the data were processed

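Gene expression had been measured by 3' RNA-seq from total RNA of 8 cell samples. Libraries were made with barcoded oligo-dT primers and pooled before PCR, per the labels' protocols, which name no molecular identifiers, so counts are of reads and may include PCR copies. Each library has 1 table of raw gene counts as deposited by the authors. Alignment was with STAR to mm10, per the submitters' processing notes. The counting program is not given in the sources used here, nor is the annotation. The 5 lines of each table that name no gene were left out. Of the reads counted for a gene, for no gene or as ambiguous, 12.1% to 17.5% were outside genes. Alignments to several places are not part of this share.

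Counts were tested in R 4.3.3 with edgeR 4.0.16 (filterByExpr with minimum count 10 and total 15, TMM, robust quasi-likelihood test, no covariates, Benjamini-Hochberg adjustment over all tested genes, threshold 0.05). SE is the absolute log2 fold change over the square root of the F statistic. The test was also run on simulated counts, drawn independently for each library with the same dispersion in both groups. That setting holds no joint deviation of libraries, as seen in LKB1-deficient replicates 2 and 4, and no conclusion is drawn from it. Shares were tested by exact permutation over the 70 splits of 8 libraries. Library pairs within a group differed by 11.6 to 49.05 in chi-square per degree of freedom, so none was a duplicate. Copies of transcripts were found with blastn in the GENCODE vM21 transcripts. The alternatives were upper quartile and total count scaling, DESeq2 1.42.0, no filter, a filter at a mean CPM of 10, a replicate block, a term for the identifier prefix (ET or EU), EU libraries only (ET holds 1 library per group and gives no test), each library left out, both LKB1-deficient replicates 2 and 4 left out, thinning to 3454388 counts, removal of a lowess trend (span 0.3) on transcript length within each library and an adjusted p of 0.01. The naming rule gave every member, full values for called members, isoforms of their steps and the 6 members with the highest CPM, and the called linked genes; values of other members, and of Myc, Hif1a and Pdk1, were added after they were seen. The members and lists were chosen with earlier results of these data known.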

Additional observations from a re-analysis of the deposited data

Results flagged for a closer look

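Single control libraries lay apart from the other 3 of their group in 3 of the 88 groups of 4 values examined (33 members and 11 isoform shares in both groups), where chance alone sets apart about 5% of such groups. Pfkl was at 227 CPM against 182 to 189.6 CPM in the other controls in control replicate 3. G6pdx was at 84.8 CPM against 101 to 102 CPM in the other controls in control replicate 2. Rpia, in the same library, was at 133 CPM against 97.9 to 104 CPM in the other controls. None of these genes was called.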

How the results depend on the processing

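With a single library left out, the count of members called lower ranged from 2 to 6; it was 6 without LKB1-deficient replicate 3, when Slc2a3, Aldoc and Tpi1 passed as well. That count was 5 with DESeq2, 1 without LKB1-deficient replicates 2 and 4 and 1 at an adjusted p of 0.01; Hk2 was the 1 member called higher in every alternative. Over all genes the higher calls were 829 with total count scaling, 162 without LKB1-deficient replicates 2 and 4 and 248 at 0.01, and the lower ones 1576 with total count scaling, 666 in EU libraries, 98 without LKB1-deficient replicates 2 and 4 and 189 at 0.01; with a single library left out they ranged from 560 to 1472 and from 441 to 1353. The summed pentose phosphate log2 ratio was -0.29 and -0.44 with total count scaling, and that of the other 28 members -0.29 and 0.0142 without LKB1-deficient replicates 2 and 4. Deviations of samples with equal replicate numbers correlated at -0.251, 0.291, 0.3004 and -0.0861 for replicates 1 to 4. LKB1-deficient replicates 2 and 3 correlated best with the control of their own number and replicates 1 and 4 did not, so the numbers were not taken to pair the samples. With a replicate block 1075 genes were higher and 827 lower, Aldoc passed (log2 fold change -1.53, adjusted p = 0.0303) and Pgls did not. Of the 33 tested members 13, none of them called in any analysis where this happened, changed sign in at least 1 alternative. Without LKB1-deficient replicates 2 and 4 the log2 fold changes were 0.11 for Gpi1, 0.11 for Pfkl, 0.42 for Pfkp, 0.32 for Pfkfb4, 0.00461 for Aldoa, 0.20 for Pgam1, 0.17 for Slc16a3, 0.0181 for Pgm2 and 0.18 for G6pdx. Hk1 was -0.0832 with upper quartile and -0.13 with total count scaling, -0.0289 without a filter, -0.0866 with the replicate block, -0.00129 with the prefix term, -0.14 in EU libraries, -0.11 at equal depth and -0.0715 with the length trend removed, where Pgk1, Pgam1 and G6pdx were 0.0908, 0.12 and 0.0253. Slc2a1 was -0.0141 with total count scaling and -0.00044 in EU libraries, and Rpia 0.00191 with DESeq2. With a single library left out the ranges were -0.0255 to 0.25 (Slc2a1), -0.27 to 0.17 (Hk1), -0.20 to 0.0138 (Pfkl), -0.42 to 0.16 (Pfkp), -0.31 to 0.18 (Pfkfb4), -0.39 to 0.15 (Pgam1), -0.23 to 0.0361 (G6pdx) and -0.0673 to 0.10 (Rpia). At equal depth 4 isoform shares had an exact p under 0.05, with Aldoc and Slc16a3 lost and Pgm2 gained. The cause of these shifts was not tested. Among tested members depth was lowest for Pgam1, Pfkfb4 and Eno2, with 3 counts in their lowest library, and for Aldoc and Ldhb, with 5.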
